A study of Ovis aries with 36 samples.

Results

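Gluteobiceps (GB) and Semitendinosus (ST), neighbouring muscles on the lateral and caudal side of the thigh, were compared in the same 4 lambs. The 8 samples titled GB1 to GB4 and ST1 to ST4 were chosen by their titles out of 36 samples, and the number in each title gives the animal, so that each GB sample was paired with the ST sample of its own lamb. The study sequenced RNA from 9 muscles of 4 unrelated Poll Dorset cross-bred lambs to describe how sheep muscles differ in expression. All animals were slaughtered at 14 months after the same feeding with soy crop and sorghum, none carried a treatment or a genetic change, and pieces were cut right after slaughter from the superficial middle of each muscle belly, for GB in its cranial part. Each value therefore describes 1 site in a muscle, and the muscle sampled is the only difference between the groups that the labels give.

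Skeletal muscle is a mosaic of slow fibres, which contract slowly, resist fatigue and live mainly on oxidative metabolism, and fast fibres, which contract quickly and rely more on glycogen. Each kind builds its sarcomere from its own isoforms of myosin, troponin and tropomyosin and handles calcium with its own pumps and buffers, so the mRNA of these isoforms follows the fibre make-up of a muscle. Muscles of the limb also keep traces of the transcription factors that patterned them in the embryo.

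Between 4250216 and 6407360 reads were counted per library in the 8 samples. Of these, 67.3% to 72.0% in GB and 71.7% to 75.1% in ST fell on the same 4 short loci without an Ensembl gene. The share was higher in ST in 3 of 4 animals (mean difference GB minus ST -4.69 percentage points, two-sided exact paired permutation test p = 0.25, smallest possible p 0.125), and 1221391 to 1955169 counts per library were left for all other loci. Levels are given as CPM, in which a count is divided by the size of its library after TMM normalisation. The log2 fold change (log2FC) is the one fitted by edgeR for GB over ST, positive where GB was higher. Its FDR is the Benjamini-Hochberg value of edgeR's quasi-likelihood test over all 12461 loci tested. The SE printed beside it was taken from the 4 differences between the muscles of a lamb in log2 CPM, with a prior count added. The prior count shrinks these differences at low counts, so there the SE can fall below counting error. It is therefore a spread among lambs and not the SE of the fitted log2FC. The files name no genes. A symbol was used only where a position listed by the study fell in a single tested locus, which held for 31 of 40 gene positions, and those positions were listed for genes that differed between muscles in these same samples, ST libraries included. Counts over such genes are therefore not independent evidence of their direction.

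Genes of the slow contractile apparatus were higher in GB than in ST in every lamb. At an FDR of at most 0.05, 395 of 12461 loci (3.17%) differed, 226 of them (1.81%) higher in GB and 169 (1.36%) higher in ST, and the number was 186 without animal 1 and 118 without animal 4. Of 19 slow fibre genes listed for the comparison, 10 could be matched to a locus, and 10 of 10 were higher in GB by this threshold. Their median log2FC was 2.92, from 1.505 to 4.71, while the median over all loci tested was -0.0053. The study lists all 10 as lower in ST than in Supraspinatus in these same samples, so low ST levels were built into the choice. Within the animals, the median difference of these 10 genes in log2 CPM was 2.91, 3.13, 3.03 and 2.63 in lambs 1 to 4, and each of the 10 genes was higher in GB in each lamb. In bulk tissue, fewer cells of a type and less of the RNA per cell cannot be told apart.

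MYL3 and MYLK3 gave the widest differences of the 10 matched slow fibre genes. MYL3, the essential light chain of slow muscle and heart (chr19:52560400-52569198 in Oar_v3.1), stood at 60.4, 89.7, 70.2 and 71.7 CPM in GB of lambs 1 to 4 and at 1.33, 1.09, 5.304 and 3.66 CPM in ST. The groups lay far apart, and the fitted difference was 26.1-fold (log2FC 4.71 ± 0.52 SE, FDR 9.1e-11). MYLK3, a myosin light chain kinase best known from the heart, stood at 38.6, 35.9, 40.97 and 31.6 CPM in GB and 3.47, 1.75, 1.49 and 1.51 CPM in ST (log2FC 4.25 ± 0.24 SE, FDR 9.1e-11). In ST, where 3 counts correspond to 0.497 to 0.8001 CPM, the values of both genes rest on 59 and 37 counts over the 4 libraries, against 1850 and 909 in GB.

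MYL2, the regulatory light chain of slow muscle, and CCDC63, a coiled-coil gene, are placed by the study in a span that holds 2 tested loci (chr17:54257918-54303146), so neither name could be assigned. Both loci were higher in GB. The first stood at 68.2, 100.1, 102 and 93.02 CPM in GB and 12.8, 6.12, 8.45 and 14.9 CPM in ST (log2FC 3.09 ± 0.37 SE, FDR 8.76e-07). The other stood at 30.8 ± 5.58 CPM in GB and 3.55 ± 1.95 CPM in ST (SD, n = 4), with log2FC 3.13 ± 0.23 SE, FDR 5.36e-08, and neither locus had overlapping groups. The position of MYH7B, a slow-type myosin heavy chain, also holds 2 loci (chr13:63837469-63938828), and here only the first differed, with 60.96, 31.96, 26.9 and 64.4 CPM in GB against 3.47, 2.19, 4.97 and 3.88 CPM in ST (log2FC 3.60 ± 0.38 SE, FDR 4.51e-06). The other locus had a log2FC of -0.16 (FDR 0.666).

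The thin filament followed the same direction. TPM3, the tropomyosin of slow fibres (chr1:103039221-103067829), stood at 115, 114, 165 and 173 CPM in GB and 11.5, 10.1, 18.6 and 19.6 CPM in ST. The ratio between the muscles hardly varied among the lambs (log2FC 3.27 ± 0.08 SE, FDR 9.1e-11), even though the level itself rose and fell with the animal in both muscles. The 3 slow troponin subunits, which together make the calcium switch of the slow thin filament, were all higher in GB. TNNT1, the tropomyosin-binding subunit (chr14:59547242-59556889), stood at 131, 177, 194 and 214 CPM in GB and 16.8, 19.7, 23.7 and 32.8 CPM in ST (log2FC 2.95 ± 0.10 SE, FDR 9.66e-08). TNNC1, the calcium-binding subunit (chr19:48403558-48406316), stood at 146, 234, 249 and 226 CPM in GB and 19.5, 26.7, 30.00 and 38.2 CPM in ST (log2FC 2.89 ± 0.12 SE, FDR 1.64e-07). The lowest value of lambs in GB belonged to animal 1 for both subunits, and it still lay above the highest ST value. TNNI1, the inhibitory subunit (chr12:78585640-78596742), was more scattered, at 34.3 ± 13.1 CPM in GB and 5.62 ± 3.48 CPM in ST (SD, n = 4), without overlap (log2FC 2.59 ± 0.23 SE, FDR 4.13e-05).

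**Figure D1:**
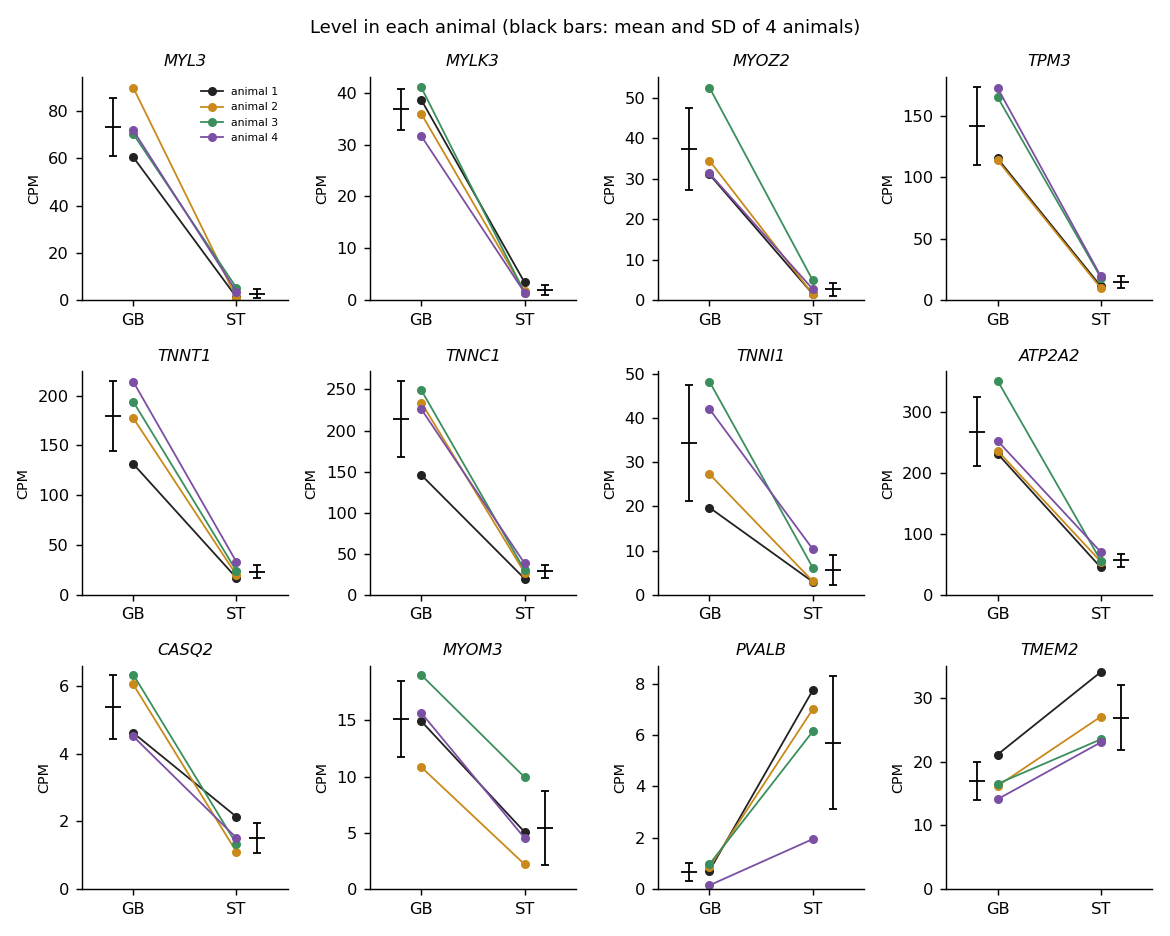
Level in CPM (linear axes from 0) of 12 genes in GB and ST, with a coloured line joining the samples of each lamb and black bars for the mean and SD of 4 animals. In the 10 slow fibre genes each line falls from GB to ST, and in PVALB and TMEM2 each line rises.

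The sequences of the primers that the study designed for qPCR of 4 of these transcripts are shown as it lists them under these names. They were not aligned to the loci counted here. The qPCR itself was not analysed here. Each is written 5′ to 3′.
MYL3 forward: tctccaagaacaaggacaccg
MYL3 reverse: atcttctgtcagcctctcacc
MYOZ2 forward: accacggttactgagatggg
MYOZ2 reverse: ggtgaagcagaggaaagagc
TNNT1 forward: gaaagaggaagaggagctggt
TNNT1 reverse: ggttctgaagcgctgttgttc
TNNC1 forward: aggagatgattgacgaggtgg
TNNC1 reverse: cttcatgcagcgaaccatcat

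At the Z-disc and M-band, which anchor the filaments, MYOZ2 and MYOM3 were higher in GB. MYOZ2, a calcineurin-binding Z-disc protein of slow fibres (chr6:6264895-6303407), stood at 31.1, 34.5, 52.5 and 31.3 CPM in GB and 1.600, 1.53, 4.97 and 2.803 CPM in ST (log2FC 3.78 ± 0.23 SE, FDR 9.1e-11). Animal 3 had the highest level in both muscles, and the groups did not overlap. MYOM3, an M-band protein (chr2:241688442-241741074), stood at 14.9, 10.8, 19.04 and 15.7 CPM in GB and 5.07, 2.19, 9.95 and 4.53 CPM in ST, and it passed the FDR of 0.05 but not 0.01 (log2FC 1.50 ± 0.26 SE, FDR 0.0228).

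Of 34 genes for calcium handling and ion channels, 4 could be matched, of which 2 were higher in GB, against 1.81% of all loci tested, and 2 did not pass an FDR of 0.05. The median log2FC of the 4 was 0.96. ATP2A2, the calcium pump that refills the sarcoplasmic reticulum of slow fibres (chr17:53803321-53860163), stood at 231, 236, 350.5 and 252 CPM in GB and 44.5, 54.00, 55.7 and 69.8 CPM in ST (log2FC 2.24 ± 0.17 SE, FDR 2.84e-07). CASQ2, the calsequestrin that stores calcium in slow and heart muscle (chr1:92170833-92243108), stood at 4.62, 6.05, 6.35 and 4.52 CPM in GB and 2.13, 1.09, 1.33 and 1.51 CPM in ST (log2FC 1.85 ± 0.27 SE, FDR 0.000976). The groups did not overlap for either gene, but the call of CASQ2 at an FDR of 0.01 was lost without animal 2 (log2FC 1.65, FDR 0.0215). KCNMA1, a calcium-activated potassium channel, was among those that did not pass (log2FC 0.06, FDR 0.869).

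PVALB ran the other way. It encodes parvalbumin, the soluble calcium buffer of fast fibres, and was the only one of 20 listed fast fibre genes that could be matched (chr3:180006084-180067626). It stood at 0.711, 0.845, 0.962 and 0.141 CPM in GB and 7.73, 6.996, 6.13 and 1.94 CPM in ST, so that the lowest ST sample, animal 4, was still above the highest GB sample. The fitted difference was 9.11-fold in favour of ST (log2FC -3.19 ± 0.16 SE, FDR 0.000152), on 16 counts in the 4 GB libraries and 107 in the 4 ST libraries. Without animal in the model the FDR of PVALB rose to 0.0389 (log2FC -3.09). In addition, the study assigns to MYLK4, a relative of the myosin light chain kinases, an unannotated transcript on chromosome 20 (chr20:49762606-49765006), which stood at 1.07, 0.986, 0.577 and 0.282 CPM in GB and 6.13, 3.06, 13.1 and 7.11 CPM in ST (log2FC -3.24 ± 0.59 SE, FDR 2.24e-06). It begins 80 bases after the end of the locus ENSOARG00000002495 (chr20:49693089-49762526), which stood at 3.02, 2.53, 4.04 and 2.26 CPM in GB and 27.2, 10.1, 71.6 and 19.4 CPM in ST (log2FC -3.28 ± 0.45 SE, FDR 9.66e-08). In both loci animal 3 was the highest of the ST samples.

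More loci were called higher in GB than higher in ST. Differentially expressed genes (DEG) were required to reach an FDR of 0.01 or less and to differ more than 1 in log2FC, and 120 of 12461 loci (0.963%) met both limits, 91 of them (0.73%) higher in GB and 29 (0.233%) higher in ST. Among the loci with an Ensembl gene the numbers were 41 and 24. Several loci can lie in 1 assembled span, and the 120 DEG lay in 90 distinct spans. Of these spans, 63 held DEG higher in GB and 29 held DEG higher in ST, and some held both. Of the slow fibre genes, 9 of 10 were among the 91. The median log2FC of the DEG was 2.04 for those higher in GB and -1.54 for those higher in ST. For 116 of the 120 the 4 lambs gave the same sign, and for 103 (79 higher in GB and 24 higher in ST) the 4 samples of one muscle lay wholly above the 4 of the other, as they did for 7.54% of all loci tested (4.04% with GB above and 3.49% with ST above). Without animal in the model 48 DEG remained (36 higher in GB and 12 higher in ST), 47 of which were among the 120. Leaving out animal 1 gave 68 DEG (56 higher in GB and 12 higher in ST) and leaving out animal 4 gave 60 (48 and 12).

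**Figure D2:**
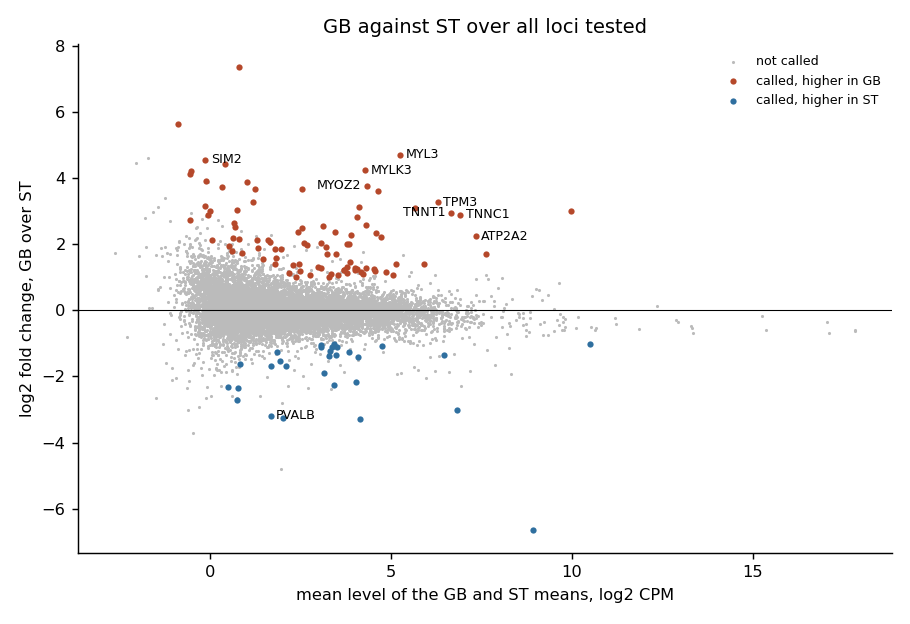
Fitted log2 fold change of GB over ST (vertical axis) against the log2 of the mean CPM of both muscles (horizontal axis) for the loci tested, with one point per locus, DEG in colour and loci without a count in either muscle left out. The 91 DEG higher in GB outnumber the 29 higher in ST, and MYL3, MYLK3 and MYOZ2 stand above most loci of their level.

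Among the annotated loci without a symbol, ENSOARG00000019316 (chr7:21104083-21157369) was higher in GB. It stood at 1277, 1699, 2339.9 and 1807 CPM in GB and 157, 176, 229 and 322 CPM in ST (log2FC 3.00 ± 0.20 SE, FDR 1.74e-07). ENSOARG00000013116 (chr9:89664737-89675620) stood at 199.6, 321, 373 and 312 CPM in GB and 87.5, 69.3, 121 and 93.8 CPM in ST (log2FC 1.71 ± 0.21 SE, FDR 9.99e-07). In the other direction, ENSOARG00000018001 (chr12:77817796-77842494) stood at 11.2, 18.7, 33.1 and 37.4 CPM in GB and 193, 158, 188 and 266 CPM in ST (log2FC -3.03 ± 0.34 SE, FDR 2.25e-06). The groups did not overlap in any of these 3 loci.

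Developmental genes gave a mixed picture. SIM2, a transcription factor of muscle and nerve development (chr1:267018135-267070595), was detected in each GB sample (2.13, 1.41, 2.69 and 0.847 CPM) and in ST by 1 count in animal 4 alone (0, 0, 0 and 0.216 CPM). The 42 counts in GB against 1 in ST gave a ratio of 31.9, with an exact binomial 95% interval of 5.42 to 1289 for counting error only, and the fitted log2FC of 4.55 (FDR 3.02e-05) was 6.52 without animal 4 and 3.86 without animal 3. An unannotated locus that ends 16.9 kb before SIM2 (chr1:266994223-267001200) stood at 4.27, 5.77, 1.92 and 1.98 CPM in GB and had no count in any ST library. With 89 counts in GB and the floor of 3 counts taken over the 4 ST libraries, it was at least 22.5-fold higher in GB (FDR 3.31e-06). EYA1, a co-activator in early muscle development, did not pass (log2FC -0.27, FDR 0.757). Of 44 listed patterning factors only SIM2 and EYA1 could be matched.

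Of 39 HOX genes, which set positional identity along the body and the limb, 2 were matched and neither passed an FDR of 0.05. HOXD8 (chr2:132873609-132877353) stood at 4.09, 3.52, 13.5 and 8.61 CPM in GB and 9.07, 9.401, 11.6 and 12.5 CPM in ST, with overlapping groups (log2FC -0.61 ± 0.34 SE, FDR 0.177). HOXC10 (chr3:132378062-132383225), a gene of the hind limb, stood at 1.95, 3.52, 2.31 and 2.54 CPM in GB and 3.200, 4.37, 2.82 and 3.66 CPM in ST (log2FC -0.42 ± 0.086 SE, FDR 0.471). Levels of a few CPM leave HOXC10 with 66 counts in each muscle. The ratio of ST to GB from these counts was 1.32 (exact binomial 95% interval 0.922 to 1.88, counting error only). GB was lower than ST in 4 of 4 lambs, but the groups overlapped and the difference did not pass the test. The matched growth genes, SMYD2 and METTL21C, both lysine methyltransferases, had overlapping groups, with log2FC values of -0.44 (FDR 0.128) and 0.34 (FDR 0.865).

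Of the 31 genes the study names with a position and that could be matched, 15 were higher in GB and 2 were higher in ST, against 1.81% and 1.36% of all loci tested, and 14 did not pass an FDR of 0.05, with log2FC from -0.61 to 0.37 among those 14. The median log2FC of the 31 genes was 0.37. PPP1R3D, a glycogen-targeting phosphatase subunit and the only one of 29 listed glycogen and glycolysis genes that was matched, was among those that did not pass (log2FC 0.13, FDR 0.813). DLG2, a scaffold protein of synapses (chr21:10629346-11743008), stood at 6.22, 3.38, 5.001 and 5.22 CPM in GB and 0.267, 0.656, 1.16 and 2.16 CPM in ST (log2FC 2.14 ± 0.48 SE, FDR 0.000307). FREM2, a matrix protein of basement membranes (chr10:23560959-23715430), stood at 2.84, 2.68, 7.89 and 2.82 CPM in GB and 0, 0.875, 1.82 and 0.647 CPM in ST (log2FC 2.13 ± 0.41 SE, FDR 0.000197), and its FDR was 0.0359 without animal in the model. Both were called on few counts, 21 and 18 over the 4 ST libraries.

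KIAA1217, a gene known from development of the spine (chr13:24120815-24477979), stood at 17.6, 15.9, 13.3 and 16.2 CPM in GB and 6.93, 9.62, 8.62 and 4.96 CPM in ST (log2FC 1.06 ± 0.25 SE, FDR 0.00115). Its call at an FDR of 0.01 did not hold without animal 1 (FDR 0.036) or without animal in the model (FDR 0.0241), and without animal 4 its log2FC was 0.89 (FDR 0.0116). RIMS2, a protein of synaptic vesicle release, passed only the FDR of 0.05 (log2FC 1.24 ± 0.19 SE, FDR 0.0382). TMEM2, a cell surface hyaluronidase (chr2:64359425-64440445), was with PVALB the other gene higher in ST, at 21.1, 16.2, 16.5 and 14.1 CPM in GB and 34.1, 27.1, 23.5 and 23.1 CPM in ST. The difference was small but almost the same in each lamb (log2FC -0.66 ± 0.052 SE, FDR 0.00539), and the groups did not overlap.

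At 3 further positions listed by the study that hold 2 tested loci, one locus was called and the other was not. At the position of MYL6, a non-muscle myosin light chain (chr3:163076924-163101778), one locus stood at 15.1, 14.8, 31.9 and 6.92 CPM in GB and 5.87, 3.94, 5.47 and 4.53 CPM in ST (log2FC 1.70 ± 0.40 SE, FDR 0.00313), and the other had a log2FC of -0.44 (FDR 0.0638). The call of the first did not hold without animal 1 (FDR 0.0218), without animal 3 (FDR 0.0534) or without animal in the model (FDR 0.0532). At the position of FABP3, the fatty acid binding protein of muscle (chr2:235135327-235198261), one locus stood at 18.8, 11.5, 24.2 and 43.2 CPM in GB and 8.53, 3.28, 4.14 and 4.096 CPM in ST (log2FC 2.28 ± 0.47 SE, FDR 1.28e-05), and the other locus had a log2FC of -0.22 (FDR 0.771). At the position of STXBP5L, a regulator of vesicle fusion (chr1:183898068-184335029), one locus was higher in ST, at 2.13, 3.098, 1.54 and 1.27 CPM in GB and 6.93, 8.53, 5.97 and 4.74 CPM in ST (log2FC -1.69 ± 0.081 SE, FDR 0.000862), with an FDR of 0.029 without animal 4 and of 0.0165 without animal in the model. The called locus had 51 counts in GB and 123 in ST. Their ratio of ST to GB was 3.18 (exact binomial 95% interval 2.27 to 4.49, counting error only). The other locus at the STXBP5L position had a log2FC of -0.28 (FDR 0.742).

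Unannotated loci made up a large share of what was higher in GB. Of the 120 DEG, 55 (45.8%) carried no Ensembl gene, against 25.4% of all loci tested. Of these, 50 were higher in GB and 5 were higher in ST. The share counts pieces of a span separately, and 13 of the 55 lay in 1 span on chromosome 12. A further 8 lay in a region of chromosome 1 and 5 in a region of chromosome 16, and others also lay in shared regions. The share therefore counts many neighbouring pieces. An unassigned transcript named by the study on chromosome 1 (chr1:230473614-230478546) stood at 7.29, 8.17, 14.6 and 13.4 CPM in GB and 0.8001, 0.875, 0.8288 and 0.862 CPM in ST (log2FC 3.68 ± 0.24 SE, FDR 8.95e-05). A locus within the span of TPM3 stood at 27.5, 21.7, 25.4 and 42.9 CPM in GB and 4.27, 3.06, 5.304 and 3.66 CPM in ST (log2FC 2.83 ± 0.26 SE, FDR 2.46e-06), in the direction of TPM3 itself. On chromosome 13 (chr13:72144997-72150898), an unannotated locus was higher in ST, at 7.64, 9.57, 10.2 and 8.89 CPM in GB and 30.9, 17.1, 21.1 and 29.7 CPM in ST (log2FC -1.40 ± 0.27 SE, FDR 0.000107).

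Part of the DEG lay close together, so they are not independent. Chosen after the values were seen, 7 regions held 3 or more DEG with gaps of at most 250000 bases. The largest, on chromosome 12 (chr12:18028459-18720283), is the assembled span in which the study places a transcript of ESRRG, a nuclear receptor of oxidative metabolism. It held 13 DEG among 51 tested loci, and the log2FC was above 0 in 51 of 51, with a median of 1.92. None of the 13 DEG carried an Ensembl gene. The Ensembl loci tested in the span were not called. These were ENSOARG00000011335 (log2FC 1.77, FDR 0.0133, overlapping groups) and ENSOARG00000022702 (log2FC 1.69, FDR 0.125). Summed over the 13 DEG, the level was 490.5, 147, 124 and 114 CPM in GB and 62.7, 43.9, 49.2 and 13.8 CPM in ST. Animal 1 was the highest in both muscles.

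A region on chromosome 1 (chr1:224441634-224776390) held 8 DEG among 15 tested loci, with a narrow range of log2FC from 1.08 to 1.45. Their summed level was 127, 155, 244 and 203 CPM in GB and 60.005, 62.1, 124 and 67.7 CPM in ST, where animal 3 in ST fell just below the lowest GB sample. On chromosome 16 (chr16:19691070-19905869), 5 of 7 tested loci were DEG, with summed levels of 15.6, 9.86, 21.7 and 12.3 CPM in GB and 1.33, 0, 2.15 and 0.216 CPM in ST. The region was hardly detected in ST. The span of MYLK3 held 3 DEG among 5 tested loci, that of chr6:12359851-12941839 held 3 among 24, and a region of chromosome X (chrX:126430335-126484211) held 3 among 8.

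**Figure D3:**
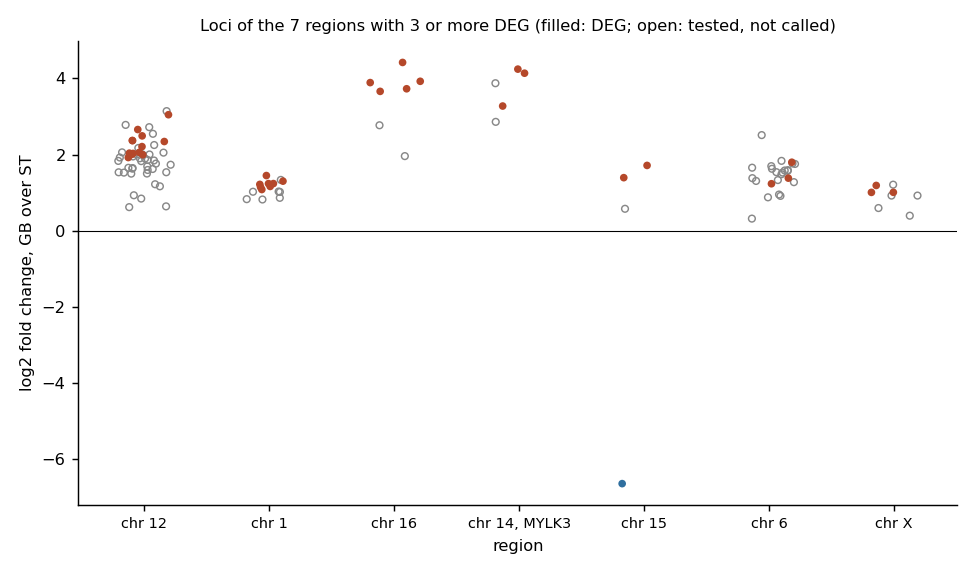
Fitted log2 fold change of GB over ST (vertical axis) for each locus tested in the 7 regions with 3 or more DEG, with filled points for DEG and open points for loci not called, spread sideways for visibility. The 51 loci of the chromosome 12 region all lie above 0, and the single point far below 0 is the chromosome 15 locus that rests on 1 library.

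The region on chromosome 15 (chr15:17226738-17264088) held 3 DEG among 4 tested loci, of which 1 rests on a single library. This unannotated locus, singled out after its values were seen, stood at 4.44, 4.51, 3.08 and 7.199 CPM in GB and 2.13, 3841, 1.66 and 2.59 CPM in ST. It was higher in GB in 3 of 4 animals, yet was called higher in ST (log2FC -6.64, FDR 0.002497), and without animal 2 its log2FC was 1.17 (FDR 0.0561). The other 2 DEG of the region were higher in GB, with log2FC of 1.396 and 1.72.

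Set beside the other 7 muscles, ST lay outside their range more often than GB did. Of the 91 DEG higher in GB, the mean of ST lay below the means of all 7 other muscles in 85 (93.4%), as it did for 16.1% of all loci tested, while GB lay above all 7 in 14 (15.4%, against 9.81% of all loci). Of the 29 DEG higher in ST, ST lay above all 7 in 25 (86.2%, against 14.3%) and GB lay below all 7 in 13 (44.8%, against 12.1%). Without animal 1, GB lay outside the 7 in 17 of the 120 DEG, against 27 with all animals. These loci were called on the same samples, so the shares are a description without a test.

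In the 10 slow fibre genes ST was the lowest of the 9 muscles in 10 of 10, and GB was in no case the highest. The study lists all 10 as lower in ST than in Supraspinatus in these same samples. The low place of ST is therefore no independent evidence. Over all loci tested, ST lay below all muscles other than GB in 16.1%. TNNC1 averaged 28.6 CPM in ST and 79.6 CPM in Longissimus lumborum (LL), the next lowest, up to 330 CPM in Psoas major (PM), with 214 CPM in GB. MYOZ2 averaged 2.73 CPM in ST and 5.96 CPM in Rectus femoris (RF), with 37.4 CPM in GB and 54.1 CPM in Supraspinatus (SS), the highest. CASQ2 averaged 5.38 CPM in GB, close to 5.41 CPM in Adductor (AD) and 5.54 CPM in LL, and 1.52 CPM in ST. PVALB did not set ST apart by its mean. It averaged 5.70 ± 2.59 CPM in ST, 5.65 ± 7.87 CPM in SS and 7.32 ± 5.41 CPM in RF (SD, n = 4). The other 6 muscles averaged between 0 and 0.665 CPM. In SS the SD was above the mean, so the level there was uneven among animals.

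**Figure D4:**
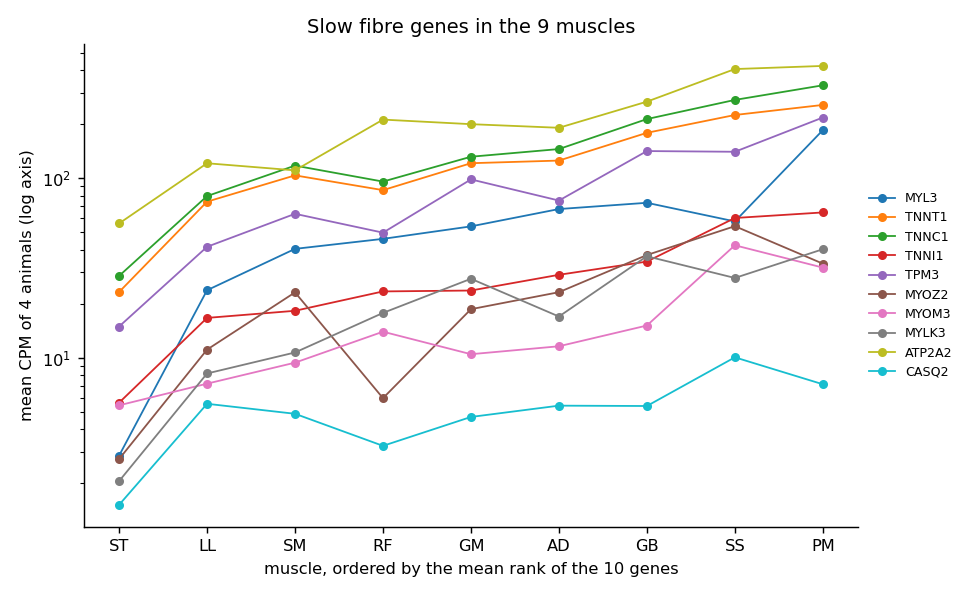
Mean CPM of 4 animals (vertical log axis) of the 10 slow fibre genes in the 9 muscles (horizontal axis, ordered by the mean rank of these genes), with a line per gene. SM is Semimembranosus and GM is Gluteus medius. ST is the lowest muscle for each of the 10 genes, and for each gene PM or SS lies above GB. The study lists all 10 as lower in ST than in SS in these same samples.

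For the make-up of the samples beyond fibres, markers of fat, connective tissue, vessels, blood, immune cells and nerve were listed, but none of them could be matched to a locus, nor could the general markers of skeletal muscle. Of 22 lists, 14 had no matched gene. The muscle labels were therefore not checked. The matched slow fibre genes cannot serve for this, since the study listed them as lower in ST than in SS in these same samples. The part that cells other than muscle fibres have in these differences was not tested.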

How the data were processed

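The authors mapped paired-end reads to Oar_v3.1 with TopHat2 2.0.13, assembled transcripts with Cufflinks 2.2.1 (versions from the submitters' processing notes), merged them with the Ensembl annotation and used htseq-count for the reads of each locus. Whether counting used strand is not given in the sources used here, so overlapping loci on opposite strands cannot be told apart. The deposited values are whole-number counts of 31136 loci without normalization. Of 31530 entries, 394 repeated a locus under a further Ensembl gene and were dropped.

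R 4.3.3 with edgeR 4.0.16 was used. Loci were filtered with filterByExpr by muscle (12461 kept) and TMM-normalised, and a negative binomial model took muscle and animal as factors over 36 samples, with a common biological coefficient of variation of 0.195. GB was tested against ST with the quasi-likelihood test. SE used a prior count of 2. The study's own likelihood ratio test, DESeq2 1.42.0 and other settings served as alternatives, and the procedure was tested on simulated data. At this depth 3 counts, taken as the floor, equal 0.422 to 0.8001 CPM in the 8 libraries, for counting error only.

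Samples were paired by the animal number in their titles. Deviations from the muscle mean were correlated between the GB and ST samples of a lamb (r 0.172 to 0.335 for the 4 pairs). The mean r between different animals was -0.0857. Deviations from a mean cancel out over the animals, so this negative value largely follows from the first and adds no support for the pairing. Replicates of a muscle differed beyond counting noise in 12 of 12 pairs (chi-square per degree of freedom 5.62 to 13.7), so none was treated as a library deposited more than once.

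Genes named are the 12 DEG of smallest p in each direction with the same sign in 4 animals where a symbol could be matched (otherwise at most 2 identifiers in each direction), the called members of gene lists, the genes the study names with positions, the 2 unannotated DEG of smallest p in each direction and the HOX genes tested. Members and lists were chosen with earlier results of these data known. Files start positions at 0 and are given here from 1. Some loci the rule covers are not reported.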

Additional observations from a re-analysis of the deposited data

Results flagged for a closer look

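In 8 of the 96 groups of 4 samples examined, the highest sample stood apart from the other 3 by more than Dixon's 95% critical value for the gap over the range. For normal values in independent groups, chance alone flags about 1 group in 20. Levels near the floor and a locus singled out by its values do not meet this, so that rate is no yardstick here. In ST these were MYLK3 in animal 1 (3.47 CPM), the FABP3 position in animal 1 (8.53 CPM), METTL21C in animal 1 (6.67 CPM), an MYL2 and CCDC63 locus in animal 4 (6.47 CPM), SIM2 in animal 4 (0.216 CPM, a single count) and the unannotated locus on chromosome 15 in animal 2 (3841 CPM). In GB they were MYOZ2 in animal 3 (52.5 CPM) and FREM2 in animal 3 (7.89 CPM). The chromosome 15 locus changed its direction when animal 2 was left out, and METTL21C, which was not called, did so without animal 2 but not without animal 1.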

How the results depend on the processing

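The 120 DEG (91 higher in GB, 29 higher in ST) and the 395 loci at an FDR of 0.05 depended on the settings as follows. With the likelihood ratio test on the 8 samples they were 198 (147 and 51) and 649. No replicate block gave 48 (36 and 12) and 135. No filter gave 317 (203 and 114) and 736, and at least 10 counts in all 8 samples gave 60 (46 and 14) and 250. A quasi-likelihood fit to the 8 samples alone, with 9255 loci tested, gave 81 DEG (62 and 19), of which 64 were among the 120. An FDR of 0.05 with an absolute log2FC above 1 gave 230 DEG. Leaving out each animal gave 60 to 115 DEG, 48 to 86 higher in GB, 12 to 29 higher in ST, and 118 to 356 loci at an FDR of 0.05. RLE size factors and leaving out the 4 short loci each gave 125 DEG, which held all 120. DESeq2 gave 129, the likelihood ratio test on 36 samples 173, and a robust fit, added after the data were seen, 126.

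Of the matched slow fibre genes, 9 to 10 stayed higher in GB at an FDR of 0.05 without each animal, and with 10 counts in all samples 6, since others were not tested. That filter left 1 calcium handling gene, 0 patterning factors, and 7 and 1 of the study's named genes higher in GB and ST. The fits to the 8 samples, in which SIM2 was not tested, called 0 patterning factors. Of the study's named genes higher in ST, 1 was called by the quasi-likelihood fit to the 8 samples and with no replicate block, and 1 to 2 without each animal. GB lay outside the other 7 muscles in 17 to 33 DEG without each animal.

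The sign of log2FC reversed for METTL21C without animal 2 (-0.10 to 1.08 over the 4 omissions), for EYA1 without animal 3 (-0.81 to 0.070) and for the chromosome 15 locus without animal 2 (-7.46 to 1.17) and with the likelihood ratio test on 8 samples (0.065). METTL21C and EYA1 were not called in any fit. The causes were not tested. Of 373 values of the 30 called loci named, 355 kept direction and call, 16 lost the call and 2 reversed.

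Counts limit the loci of a few CPM, where ST holds 1 to 28 counts in SIM2, FREM2, DLG2 and CASQ2, and 4 animals limit the test of all others.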
